A study of Mus musculus with 6 samples.

Results

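The 37 enzymes and carriers of glycolysis, pyruvate handling and the tricarboxylic acid (TCA) cycle were followed in mouse haematopoietic stem cells with and without Yy1, the gene of a zinc finger transcription factor. They were taken by gene symbol from a table of 15553 genes. All 37 were listed, and all 37 passed the minimum of 1 RPKM (read counts scaled for gene length and library size) in at least 3 of 6 libraries that 13179 genes passed. They comprised 18 glycolysis genes, 6 pyruvate genes and 13 TCA cycle genes. RNA came from bone marrow cells of C57BL/6 mice aged 6 to 8 weeks. The wild type group (3 libraries) carried Mx1-Cre alone, and the knockout group (3 libraries) carried Yy1f/f;Mx1-Cre. Both groups thus carried the Cre recombinase, whose Mx1 promoter responds to interferon and is not restricted to stem cells. The sorting gate is given as lineage-negative, Sca1+, c-Kit+ and CD150+ in one label, whereas the protocol names both CD150+ and CD150- cells within the CD48- gate. The labels do not say whether each library came from its own mouse, so p-values measure the spread between these libraries, which may be technical.

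Glycolysis splits glucose into pyruvate in the cytosol and yields a little ATP without oxygen. Pyruvate is then either reduced to lactate by lactate dehydrogenase or carried into mitochondria, where the pyruvate dehydrogenase complex turns it into acetyl-CoA for the TCA cycle. Pyruvate dehydrogenase kinases switch that complex off. Quiescent adult stem cells of the bone marrow are known for leaning on glycolysis and for holding pyruvate back from the mitochondria through these kinases.

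Yy1 itself was listed at 31.6, 42.3 and 52.1 RPKM in wild type libraries 1, 2 and 3 and at 36.2, 16.6 and 28.5 RPKM in knockout libraries 1, 2 and 3. Knockout library 1 lay above wild type library 1, so the groups overlapped, and the log2 fold change was -0.66 (SE 0.32; limma, adjusted p = 0.680). The labels do not say which part of Yy1 is removed, so a row that sums the whole gene checks the genotype only in part, and "knockout" below means the libraries so labelled. The library size implied by the RPKM unit ranged from 12920190 to 19535460. Reads recovered for the listed genes, 15102983 to 21757039, exceeded it in each library, so neither is an exact read depth. Wild type library 3 listed 1991 genes at 0, the most of the 6, and knockout library 2 listed 373, the fewest. Of the gate genes, Kit was at 76.6 to 140 RPKM and Ly6a, which encodes Sca1, at 26.1 to 84.7 RPKM. Cd48 did not exceed 3.76 RPKM and Slamf1, which encodes CD150, was at 2.21 to 5.96 RPKM. Of other stem and progenitor genes, Hlf was at 86.7 to 144 RPKM and Procr at 36.9 to 62.9 RPKM. Summed markers of mitosis were 118 to 192 RPKM in wild type, against 423 to 440 RPKM in knockout. Of the 12 genes, 11 were higher without overlap, beside 7.63% of all genes tested. The 8 summed gate, stem and progenitor genes were Kit, Ly6a, Slamf1, Cd48, Cd34, Procr, Mecom and Hlf. Their sum was 418 to 514 RPKM among wild type libraries, compared with 305 to 335 RPKM among knockout ones. Only Kit and Hlf of these 8 were lower without overlap, beside 6.87% of all genes tested. Slamf1 averaged 3.0 ± 0.849 RPKM in wild type, against 4.54 ± 1.23 RPKM in knockout (SD, n = 3 each), with overlap. Granulocyte and monocyte markers were highest in the second library of each group, at 144 and 260 RPKM, and between 17.7 and 58.6 RPKM in the other 4. Erythroid markers summed to 207 to 260 RPKM in wild type, against 200 to 267 RPKM in knockout, and megakaryocyte markers to 136 to 159 and 108 to 173 RPKM. Of the B cell list only Cd79b was listed, at 9.15 to 28.6 RPKM, and of the T and NK cell list only Nkg7, at 3.99 to 15.3 RPKM. The part of these marker levels in the results below was not tested, and fewer cells of a type cannot be told apart from less RNA per cell.

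Promoter windows are shown as examples for 3 of the members whose libraries did not overlap between genotypes. Such members made 5.41% of the 37 in each direction, under the 7.63% of all genes that were higher and 6.87% that were lower. Each window is the 250 bases before a RefSeq transcription start in GRCm38.p6, and 35 of the 37 members had at least one entry, 54 windows in all. Ldha encodes the lactate dehydrogenase subunit suited to reducing pyruvate, Ldhb the subunit suited to oxidising lactate, and Pfkm the muscle-type phosphofructokinase. One window of each is printed 5′ to 3′ on the gene's strand. The windows lie at chr7:46845554-46845803 (plus strand) for Ldha, chr6:142507958-142508207 (minus strand) for Ldhb and chr15:98092339-98092588 (plus strand) for Pfkm. Capitals mark matches, on either strand, to the YY1 core AANATGG, the hypoxia response cores ACGTG and GCGTG, or the E-box CACGTG.
Ldha: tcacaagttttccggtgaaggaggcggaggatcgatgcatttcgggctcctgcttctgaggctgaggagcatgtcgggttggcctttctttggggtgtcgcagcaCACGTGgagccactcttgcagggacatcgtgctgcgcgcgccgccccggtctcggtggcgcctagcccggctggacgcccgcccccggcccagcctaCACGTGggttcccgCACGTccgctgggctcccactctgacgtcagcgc
Ldhb: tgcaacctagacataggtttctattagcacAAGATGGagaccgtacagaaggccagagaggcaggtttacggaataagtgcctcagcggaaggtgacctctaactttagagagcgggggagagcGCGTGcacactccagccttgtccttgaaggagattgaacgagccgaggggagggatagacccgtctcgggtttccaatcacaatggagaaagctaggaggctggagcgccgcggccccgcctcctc
Pfkm: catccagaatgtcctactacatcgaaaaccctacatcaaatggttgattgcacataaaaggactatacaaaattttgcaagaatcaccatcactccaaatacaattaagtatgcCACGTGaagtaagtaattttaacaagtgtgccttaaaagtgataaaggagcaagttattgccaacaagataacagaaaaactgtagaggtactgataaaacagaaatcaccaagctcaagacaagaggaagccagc
The Ldha window held the E-box at 145 and at 48 bases before the start and a further ACGTG on the opposite strand at 34 bases. Every CACGTG also contains ACGTG on both strands, so these matches are not separate. The Ldhb window held AANATGG at 220 bases and GCGTG at 126 bases before the start, and no E-box. The Pfkm window shown held a single E-box at 136 bases before the start. RefSeq lists 4 starts for Pfkm, and the windows of 2 later ones, which overlap each other, held GCGTG and one shared AANATGG match, at 8 and 93 bases before their respective starts. The earlier of these also held ACGTG. A second Ldha window held GCGTG alone. Across all 32851 RefSeq windows of this length the E-box was found in 6.0%, ACGTG in 16.6%, GCGTG in 28.2% and AANATGG in 12.4%. Among the 54 member windows the shares were 11.1% for the E-box, 38.9% for ACGTG, 53.7% for GCGTG and 13.0% for AANATGG. Member windows were also richer in G and C, with a median of 61.0% against 52.4% over all windows, and several windows of a gene can overlap each other. A match describes letters and not binding.

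None of the 37 members passed an adjusted p of 0.05 between the genotypes (limma with Benjamini-Hochberg adjustment over all genes tested), and 0% of all genes tested did. At an unadjusted p under 0.05, Ldha and Idh3a were higher in knockout and Ldhb and Pfkm were lower. These are 2 members in each direction, where 4.73% of all genes were higher and 3.06% were lower by the same rule. Without wild type library 1 or without knockout library 3, Ldhb alone of these 4 kept an unadjusted p under 0.05. Leaving out knockout library 1, whose Yy1 level was within the wild type range, gave log2 fold changes of -1.28 for Ldhb, 0.37 for Ldha, -0.89 for Pfkm and 0.48 for Idh3a. The same 4 genes were the members whose knockout and wild type libraries did not overlap. They make 5.41% of the members in each direction, under the 7.63% of all genes that were higher and the 6.87% that were lower without overlap. With limma-voom on reads recovered from the RPKM values, 4 members had an unadjusted p under 0.05 (7.83% of genes) and 0 members an adjusted one (0.0610% of genes). In the authors' deposited table, 3 members (Pfkm, Ldha and Ldhb) had p under 0.05, against 8.02% of its genes, and 0 had an adjusted p under 0.05, against 0.154%.

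**Figure D1:**
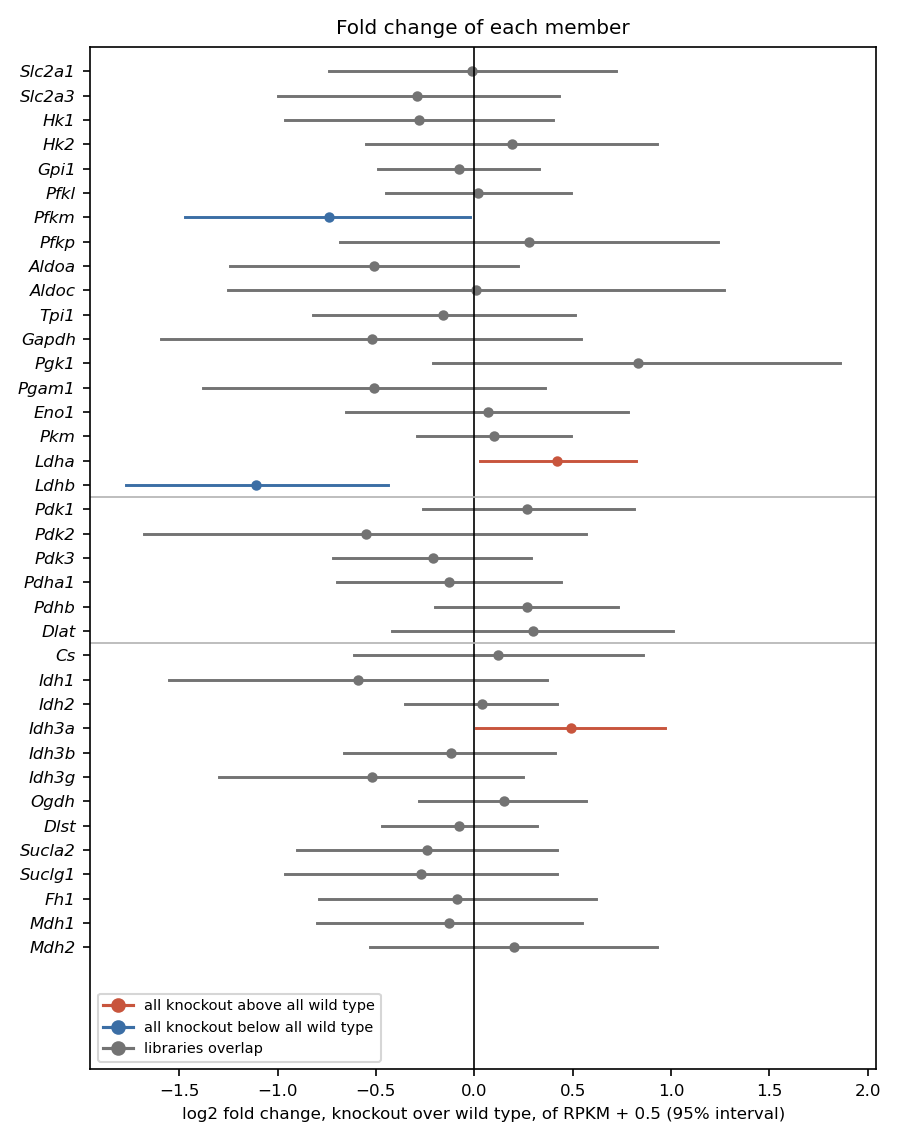
Log2 fold change of RPKM + 0.5, knockout over wild type, with its 95% limma interval (bar) for each of the 37 members, in pathway order from the glucose carriers at the top to malate dehydrogenase. Ldha and Idh3a lie above 0 and Pfkm and Ldhb below it with no overlap between the 3 libraries of each group.

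As groups the members stayed near the level of all genes. The median log2 fold change was -0.05 for glycolysis, 0.07 for the pyruvate genes and -0.09 for the TCA cycle, and 0.02 over all genes tested. Of the 37 members, 28 (75.7%) lay within 0.5 of 0 on the log2 scale, and 65.1% of all genes did. For 24 members the whole 95% interval of the log2 fold change lay between -1 and 1, so a change of 2-fold or more was outside the interval for those and not for the rest. Summed over the 37 members the RPKM values were 1045, 1021 and 1179 among wild type libraries, compared with 1077, 1031 and 1038 among knockout ones, and these ranges overlapped.

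The members spanned a wide range of levels. The median member averaged 21.6 RPKM over the 6 libraries, and the median tested gene 9.07 RPKM. As listed, without the pseudogene copies described below, the 4 members with means of at least 50 RPKM were Pkm, Ldha, Mdh1 and Idh2. They averaged 105, 92.2, 79.5 and 58.4 RPKM. Pkm ranged from 91.7 to 123 RPKM and Ldha from 72.5 to 114 RPKM, so these neighbours overlapped, as did Ldha with Mdh1 (56.9 to 114 RPKM) and Mdh1 with Idh2 (52.2 to 64.7 RPKM). Under 10 RPKM on average were Eno1, Pgam1, Pgk1, Pfkp, Gapdh, Aldoc and Pdk2, and also Idh1 at 9.97 RPKM. The lowest, Pdk2, averaged 4.21 RPKM. The ratio of the highest to the lowest library had a median of 1.96 over the members, and of 2.31 over the 9918 tested genes at or above the level of Pdk2.

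**Figure D2:**
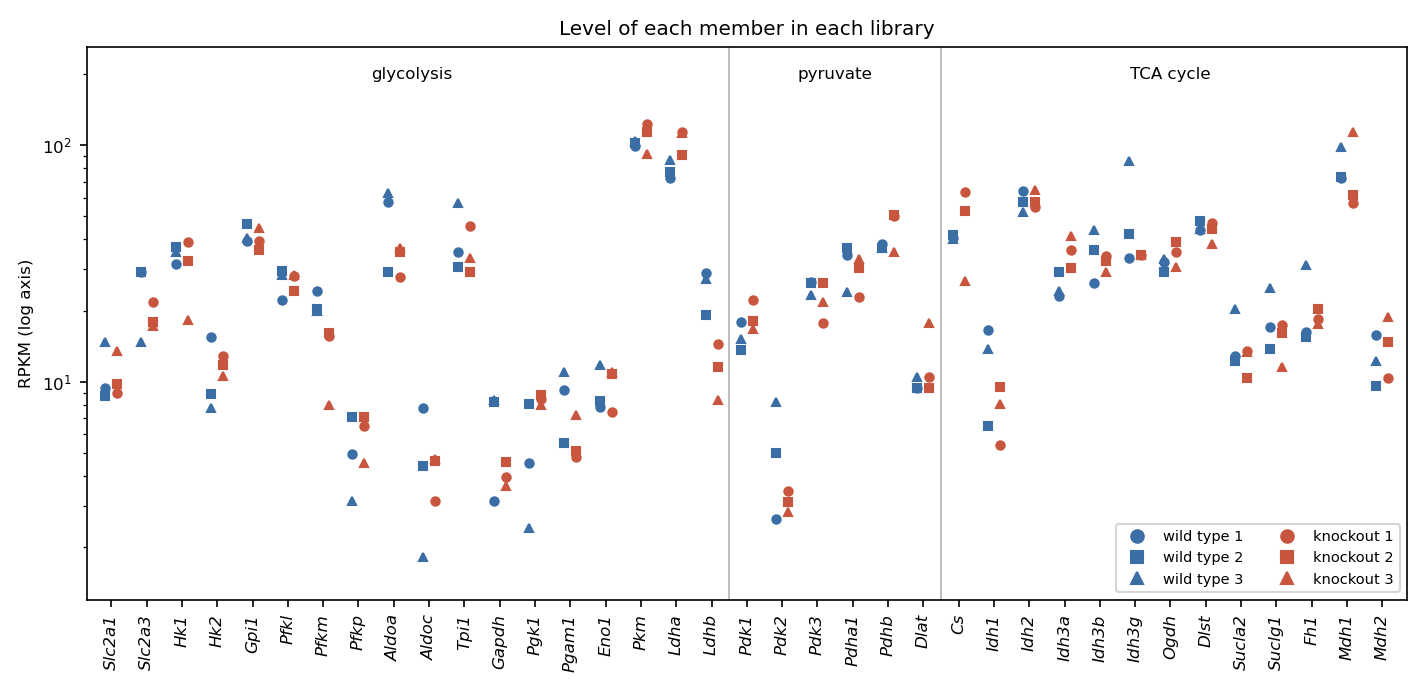
RPKM on a log axis for each member (x axis, in pathway order) in each of the 6 libraries, wild type in blue and knockout in red, with the marker shape giving the replicate. Pkm, Ldha, Mdh1 and Idh2 sit highest, and Gapdh, Pgk1, Aldoc and Pdk2 lie under 10 RPKM in every library.

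Glucose enters the cell through carriers and is trapped by hexokinases. Slc2a3, the high-affinity carrier GLUT3, was the more abundant carrier on average, at 29.0, 29.1 and 14.7 RPKM in wild type, against 21.8, 17.9 and 17.2 RPKM in knockout. Slc2a1, the carrier GLUT1, ranged from 8.75 to 14.8 RPKM. In wild type library 3 they were almost level, with Slc2a3 making 49.8% of their sum, against 75.5% and 76.9% in the other wild type libraries and 56.1% to 70.8% in knockout. Hk1, the housekeeping hexokinase, was at 31.4, 37.2 and 35.4 RPKM among wild type libraries, compared with 38.8, 32.5 and 18.2 RPKM among knockout ones. Hk2, the inducible hexokinase, was at 7.77 to 15.4 RPKM. Knockout library 3 had the lowest Hk1 of the 6 libraries, while the other knockout libraries lay within or above the wild type range. The Hk2 share of both hexokinases was 32.9%, 19.3% and 18.0% in wild type, against 25.0%, 26.6% and 36.8% in knockout, with overlap. Gpi1, which converts glucose 6-phosphate to fructose 6-phosphate, was at 39.5, 46.5 and 40.4 RPKM among wild type libraries, compared with 39.2, 35.9 and 44.6 RPKM among knockout ones. Its groups overlapped, and its 95% interval ran from -0.49 to 0.33 on the log2 scale. Exons of Gpi1 share 741 of 6452 bases with Gm26762 on the opposite strand.

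Phosphofructokinase catalyses the committed step of glycolysis, and its tetramers are built from the liver (Pfkl), muscle (Pfkm) and platelet (Pfkp) subunits. Pfkm (chr15:98092589-98132451, plus strand, GRCm38 with GENCODE M21, as for the other genes placed below) was listed at 24.3, 20.4 and 19.9 RPKM in wild type, against 15.6, 16.1 and 7.96 RPKM in knockout. All 3 knockout libraries lay below all 3 wild type libraries, and knockout library 3 was the lowest. Group means came to 21.5 ± 2.39 and 13.2 ± 4.56 RPKM (SD, n = 3 each). The log2 fold change was -0.74 (SE 0.31, 95% interval -1.47 to -0.02), with an adjusted p of 0.631 in limma, and it was -0.43 without knockout library 3. For Pfkm the authors' deposited table gives -0.78 on the log2 scale, adjusted p 0.601. Pfkl was the most abundant subunit on average, at 22.1, 29.3 and 28.3 RPKM among wild type libraries, compared with 27.9, 24.1 and 28.2 RPKM among knockout ones, and Pfkp ranged from 3.14 to 7.09 RPKM. The intervals of their log2 fold changes were -0.45 to 0.49 and -0.68 to 1.24.

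Expressed as a share of the phosphofructokinase sum, which does not depend on library scaling, Pfkm made 47.4%, 35.9% and 38.8% in wild type, against 31.2%, 34.0% and 19.6% in knockout. The shares did not overlap, and the difference of means was -12.4 percentage points (two-sided exact permutation test, p = 0.1, 0.489 after Benjamini-Hochberg adjustment over the 11 shares compared). The smallest p that 3 against 3 libraries can give is 0.1, so none could pass a threshold of 0.05. Without knockout library 3 the difference in the Pfkm share was -8.08 percentage points. In wild type library 1 Pfkm exceeded Pfkl, and in the other 5 libraries Pfkl was the higher. The 3 subunits summed to 51.3, 56.8 and 51.4 RPKM among wild type libraries, compared with 49.9, 47.4 and 40.6 RPKM among knockout ones, again without overlap (exact permutation p = 0.1, 0.45 adjusted over 9 such sums and ratios). Exons of Pfkm share 341 of 3340 bases with Gm26513, a listed gene on the same strand, and 18 bases with Senp1, and reads from these bases cannot be assigned to one gene. Exons of Pfkp share 748 of 13401 bases with Pitrm1 on the opposite strand.

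Aldolase and triosephosphate isomerase split the hexose and interconvert its products. Aldoa, the main aldolase, was at 57.5, 29.0 and 62.9 RPKM in wild type, against 27.6, 35.4 and 36.6 RPKM in knockout. Wild type libraries 1 and 3 lay above every knockout library and wild type library 2 lay among them. Aldoc, an aldolase best known from brain, was at 1.82 to 7.76 RPKM, with both extremes in wild type. Tpi1 was at 35.3, 30.6 and 57.0 RPKM among wild type libraries, compared with 45.5, 29.1 and 33.4 RPKM among knockout ones, with wild type library 3 the highest.

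The next enzymes carry glycolysis from glyceraldehyde 3-phosphate to phosphoenolpyruvate, and all are textbook housekeeping enzymes. Gapdh was listed at 3.13, 8.18 and 8.35 RPKM in wild type, against 3.96, 4.59 and 3.63 RPKM in knockout. Pgk1, phosphoglycerate kinase, was at 4.55, 8.08 and 2.41 RPKM among wild type libraries, compared with 8.45, 8.79 and 7.96 RPKM among knockout ones. Pgam1, phosphoglycerate mutase, was at 9.22, 5.49 and 11.0 RPKM in wild type, against 4.80, 5.12 and 7.27 RPKM in knockout. In each of the 3 genes the groups overlapped. Eno1, enolase, was at 7.84, 8.26 and 11.8 RPKM among wild type libraries, compared with 7.45, 10.8 and 11.0 RPKM among knockout ones, also with overlap.

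Processed pseudogenes and related retrocopies, which are copies of a messenger RNA inserted elsewhere in the genome, were listed for several members with high values. By a search of GENCODE M21 genes for at least 90% identity over at least 50% of the coding sequence, 12 members had such a copy, and 9 had one in the table. Gapdh had 143 copies, of which 32 were listed, and these summed to 433 to 584 RPKM per library. When copy reads were added to the member, 93.6% to 97.6% of the Gapdh reads were on copies. For Pgk1 the listed copies Pgk1-rs7 and Gm5537 summed to 111 to 156 RPKM, and 88.5% to 96.7% of the combined reads were on them. For Eno1 the copies summed to 44.6 to 88.0 RPKM and held 51.6% to 65.9% of the combined reads. For Pgam1 the copy was at 10.6 to 53.0 RPKM and held 36.1% to 76.5% of the combined reads. These are the 4 members whose copies exceeded the gene itself in RPKM in all 6 libraries, although not always in reads for Pgam1. The copies of Gpi1 (39.7 to 79.3 RPKM) and Pkm (55.2 to 121 RPKM) were also high, and those of Ldha (7.33 to 22.4 RPKM) and Pdhb (12.3 to 30.7 RPKM) were lower. The copy of Ldhb, at 1.69 to 64.3 RPKM, exceeded the gene itself in 3 libraries and held 6.96% to 64.9% of the combined reads. The levels of the genes with copies above them in RPKM, in all or in some libraries, are therefore uncertain. From which loci the reads of the copies came was not tested.

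**Figure D3:**
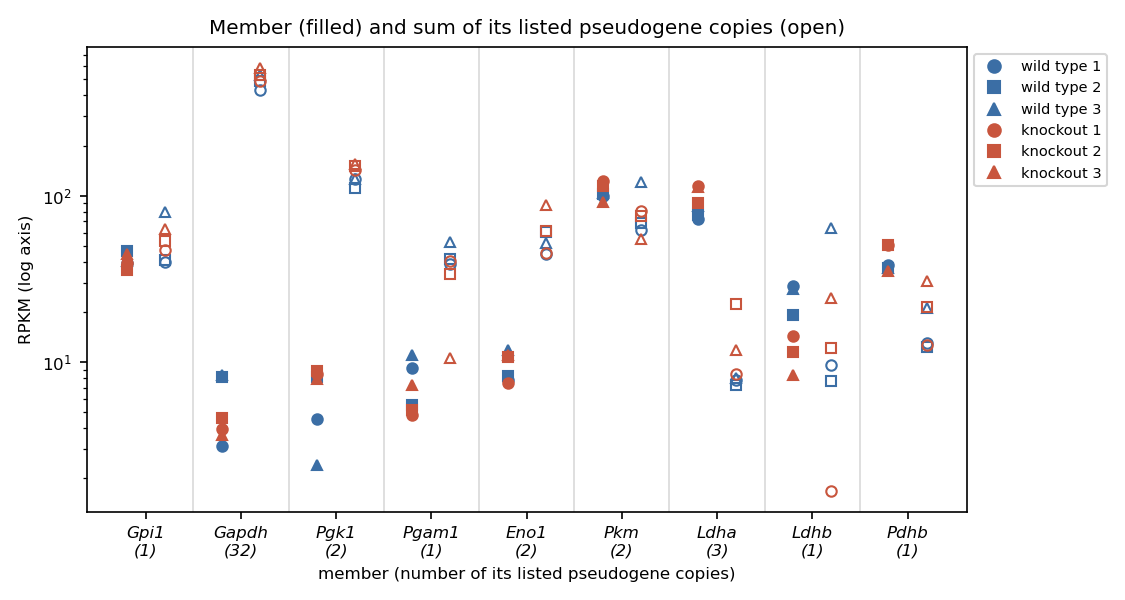
RPKM on a log axis of the 9 members with listed pseudogene copies (filled markers) and of the summed copies (open markers) in each library, wild type in blue and knockout in red. The copies of Gapdh reach 433 to 584 RPKM while Gapdh itself stays at 3.13 to 8.35 RPKM.

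Adding the reads of the copies to each gene was an alternative chosen after the values were seen. Pgk1 with its copies was at 74.8, 70.0 and 72.8 RPKM in wild type, against 88.3, 93.1 and 95.1 RPKM in knockout, so that the groups no longer overlapped (log2 fold change 0.34, SE 0.15; limma, adjusted p = 0.632). Gapdh with its copies was at 110, 129 and 139 RPKM among wild type libraries, compared with 126, 135 and 150 RPKM among knockout ones. Its log2 fold change turned from -0.52 to 0.12, with overlap in both cases. Pgam1 with its copy was at 24.3, 21.7 and 31.5 RPKM in wild type, against 20.5, 18.1 and 11.4 RPKM in knockout, lower without overlap (log2 fold change -0.64; limma, adjusted p = 0.647). Pdhb with its copy was higher without overlap, by 0.30 on the log2 scale (limma, adjusted p = 0.740). Ldhb with its copy was at 35.0, 24.0 and 68.3 RPKM among wild type libraries, compared with 15.5, 19.3 and 24.0 RPKM among knockout ones. It counted as lower without overlap, although wild type library 2 and knockout library 3 were equal at the digits printed. With copies added, 4 members were higher and 3 lower without overlap, beside 7.63% and 6.87% of all genes in the table as deposited, and none of the 37 passed an adjusted p of 0.05.

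Pkm, pyruvate kinase, makes pyruvate in the last step and was the most abundant member as listed, at 98.9, 102 and 104 RPKM among wild type libraries, compared with 123, 114 and 91.7 RPKM among knockout ones. The wild type mean was 102 ± 2.39 RPKM (SD, n = 3), and the knockout libraries lay on both sides of them. The log2 fold change was 0.10 with an interval of -0.29 to 0.49. Exons of Pkm share 767 of 5001 bases with Gm49759, an unlisted gene on the same strand.

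Lactate dehydrogenase showed opposite differences of its subunits. Ldhb (chr6:142490249-142507957, minus strand) was listed at 28.8, 19.1 and 27.3 RPKM in wild type, against 14.4, 11.5 and 8.41 RPKM in knockout. The lowest wild type library lay above the highest knockout library, and the group means came to 25.1 ± 5.23 and 11.4 ± 3.0 RPKM (SD, n = 3 each). The log2 fold change was -1.11 (SE 0.29, 95% interval -1.77 to -0.44), which had the smallest p of the members, 0.0052 unadjusted and 0.436 adjusted (limma). Ldha (chr7:46841475-46855627, plus strand) was at 72.5, 76.8 and 86.7 RPKM among wild type libraries, compared with 114, 90.9 and 113 RPKM among knockout ones. Every knockout library lay above every wild type library, with means of 78.7 ± 7.29 and 106 ± 12.9 RPKM (SD, n = 3 each). Its log2 fold change was 0.42 (SE 0.17, 95% interval 0.03 to 0.82), with an adjusted p of 0.626 in limma. The authors' deposited table gives log2 fold changes of -1.14 for Ldhb and 0.42 for Ldha, with adjusted p of 0.583 and 0.592.

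Ldha made 71.6%, 80.1% and 76.1% of the summed lactate dehydrogenase RPKM in wild type, against 88.7%, 88.8% and 93.1% in knockout. The groups did not overlap, and the means differed by 14.3 percentage points (two-sided exact permutation test, p = 0.1, the smallest possible, and 0.489 adjusted over the 11 shares). The sum of Ldha and Ldhb was 101, 95.9 and 114 RPKM among wild type libraries, compared with 128, 102 and 121 RPKM among knockout ones, with overlap (exact permutation p = 0.2, adjusted p = 0.540). The coding sequences of Ldha and Ldhb are 73.0% identical, with a longest identical run of 18 bases. The Ldhb row rested on 258 to 633 reads per library. A processed copy of Ldhb, Gm5514 on chromosome 19, was listed at 9.61, 7.71 and 64.3 RPKM in wild type, against 1.69, 12.1 and 24.4 RPKM in knockout. Wild type library 3 stood far above the others for this copy, and the groups overlapped. With copies added, the Ldha share was 68.2%, 76.7% and 56.6% among wild type libraries, compared with 88.2%, 83.5% and 82.9% among knockout ones, and the log2 fold changes were -0.98 for Ldhb and 0.44 for Ldha. The mitosis markers, as given above, were also higher in all 3 knockout libraries, and their part in the lactate dehydrogenase difference was not tested.

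**Figure D4:**
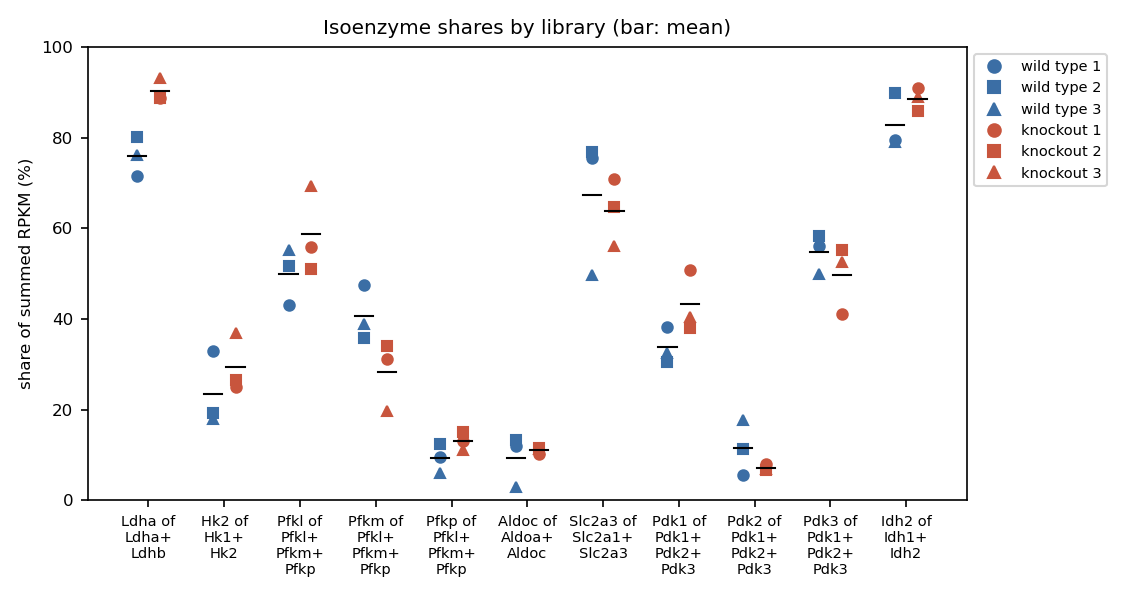
Share of the named subunit in the summed RPKM of its isoenzymes (y axis, %) for 11 shares (x axis) in each library, wild type in blue and knockout in red, with black bars for group means. The Ldha share (71.6% to 80.1% in wild type, 88.7% to 93.1% in knockout) and the Pfkm share separate the groups, and the other 9 overlap.

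Pyruvate dehydrogenase kinases hold pyruvate out of the TCA cycle by phosphorylating the E1 subunit of pyruvate dehydrogenase. Pdk3 was the most abundant kinase on average, at 26.3, 26.1 and 23.2 RPKM in wild type, against 17.8, 26.1 and 21.7 RPKM in knockout. Pdk1, a hypoxia-inducible kinase, ranged from 13.6 to 22.1 RPKM, and Pdk2 from 2.64 to 8.21 RPKM. The order Pdk3, Pdk1, Pdk2 held in 5 libraries, and in knockout library 1 Pdk1 made 50.9% and Pdk3 41.1% of the sum. The Pdk1 share was 38.3%, 30.4% and 32.5% among wild type libraries, compared with 50.9%, 38.1% and 40.5% among knockout ones, so wild type library 1 and knockout library 2 crossed narrowly (exact permutation p = 0.2, adjusted p = 0.489). The 3 kinases summed to 44.8 to 46.9 RPKM in wild type, against 41.2 to 47.3 RPKM in knockout.

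The complex that these kinases act on was represented by both E1 subunits and the E2 subunit. Pdhb, the E1 beta subunit, was at 38.2, 36.6 and 36.8 RPKM among wild type libraries, compared with 50.2, 50.6 and 35.3 RPKM among knockout ones. Knockout libraries 1 and 2 lay above all wild type libraries and knockout library 3 below them. Pdha1, the E1 alpha subunit, was at 22.8 to 36.7 RPKM, and Dlat, the E2 acetyltransferase, at 9.38 to 17.7 RPKM with its highest value in knockout library 3. Exons of Pdha1 share 603 of 3734 bases with Map3k15 on the opposite strand.

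In the TCA cycle, citrate synthase (Cs) was tight in wild type, at 40.7, 41.6 and 40.3 RPKM, and wide in knockout, at 63.4, 52.5 and 26.6 RPKM. The knockout libraries thus lay on both sides of the wild type libraries, and the log2 fold change of Cs was 0.12 with an interval of -0.61 to 0.86. Mitochondrial Idh2, an NADP-dependent isocitrate dehydrogenase, was at 63.8, 57.3 and 52.2 RPKM in wild type, against 55.0, 57.7 and 64.7 RPKM in knockout. Its cytosolic counterpart Idh1 ranged from 5.43 to 16.6 RPKM, and Idh2 made 79.1% to 91.0% of their sum.

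The NAD-dependent isocitrate dehydrogenase of the cycle is built from the catalytic alpha subunit Idh3a and the subunits Idh3b and Idh3g. Idh3a (chr9:54586334-54604661, plus strand) was at 23.0, 29.0 and 24.1 RPKM among wild type libraries, compared with 35.9, 30.4 and 41.5 RPKM among knockout ones. Its libraries did not overlap, although wild type library 2 and knockout library 2 were close. Group means came to 25.4 ± 3.20 and 35.9 ± 5.56 RPKM (SD, n = 3 each), and the log2 fold change was 0.49 (SE 0.20, 95% interval 0.01 to 0.97), with an adjusted p of 0.631 in limma. The authors' deposited table gives 0.49 and an adjusted p of 0.683. Idh3g was the most abundant of the 3 over all 6 libraries, at 33.4, 42.1 and 85.9 RPKM in wild type, against 34.2, 34.4 and 34.3 RPKM in knockout. Wild type library 3 held its highest value, and in knockout the mean of Idh3g, 34.3 ± 0.0678 RPKM (SD, n = 3), was under that of Idh3a. Idh3b was at 26.1 to 43.6 RPKM. The ratio of Idh3a to the mean of Idh3b and Idh3g, formed after the values were seen, was 0.771, 0.743 and 0.373 among wild type libraries, compared with 1.05, 0.911 and 1.31 among knockout ones (two-sided exact permutation test, p = 0.1, the smallest possible, and 0.45 adjusted over the sums and ratios).

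The 2-oxoglutarate dehydrogenase complex was given by Dlst, its E2 subunit, and Ogdh, its E1 subunit. Dlst was at 43.9, 47.8 and 44.2 RPKM in wild type, against 47.1, 44.1 and 38.1 RPKM in knockout, and Ogdh ranged from 29.2 to 38.9 RPKM. Both had narrow intervals, of -0.47 to 0.32 for Dlst and -0.28 to 0.57 for Ogdh. Suclg1, the alpha subunit of succinyl-CoA ligase, was at 17.1, 13.7 and 24.8 RPKM among wild type libraries, compared with 17.4, 16.1 and 11.6 RPKM among knockout ones. Its partner Sucla2, the ADP-forming beta subunit, was at 10.4 to 20.3 RPKM.

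Fumarate hydratase (Fh1) was at 16.3, 15.5 and 31.3 RPKM in wild type, against 18.4, 20.4 and 17.5 RPKM in knockout. Cytosolic malate dehydrogenase, Mdh1, was at 72.6, 73.3 and 98.0 RPKM among wild type libraries, compared with 56.9, 61.7 and 114 RPKM among knockout ones, with the third library the highest in each group. Mitochondrial Mdh2, the enzyme of the cycle itself, ranged from 9.60 to 18.8 RPKM. In wild type library 3 Idh3g, Suclg1, Sucla2 and Fh1 all had their highest value. That library held the highest value for 12 of the 37 members (32.4%), and for 23.6% of all genes tested.

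**Figure D5:**
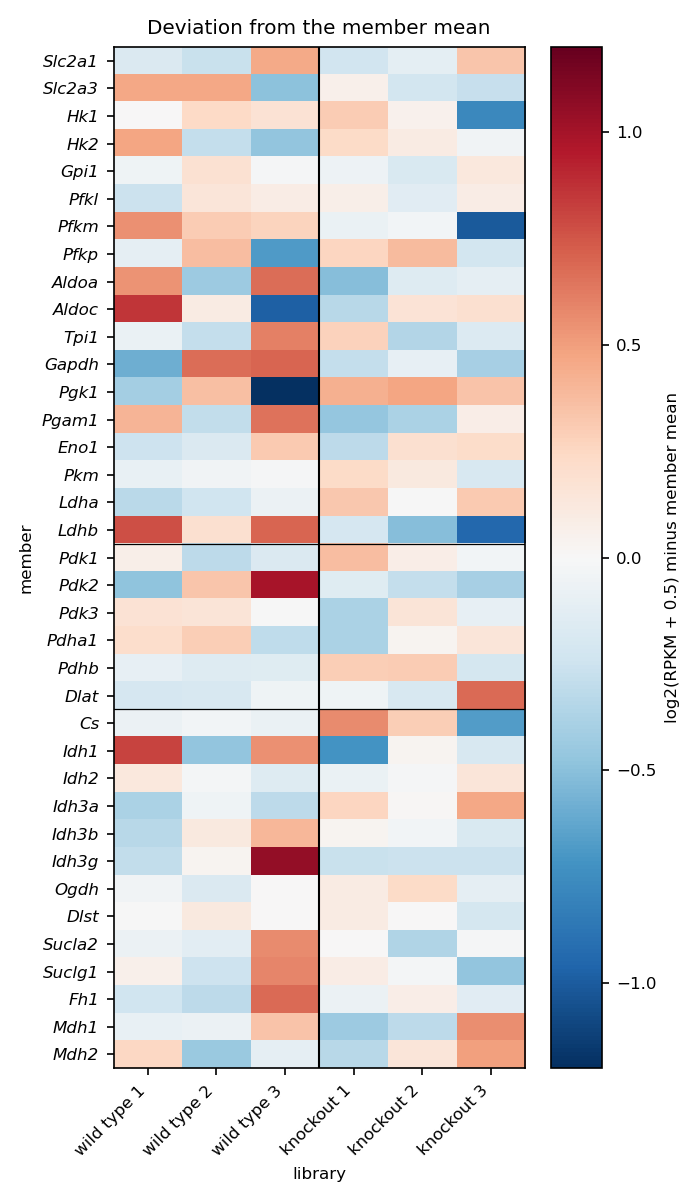
Colour gives log2(RPKM + 0.5) of each member (rows, in pathway order) minus its mean over the 6 libraries (columns), with red above and blue below the mean. Wild type library 3 has the highest value of 12 members, among them Idh3g, and knockout library 3 the lowest Pfkm, Ldhb and Cs.

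The rest of the pathway was read from 69 further genes, of which 54 were in the table and 48 passed the filter. Their median log2 fold change was 0.11, with 30 above 0 and 18 below. Me2, a mitochondrial malic enzyme that makes pyruvate from malate, was at 16.6, 17.0 and 10.9 RPKM in wild type, against 22.8, 25.4 and 24.1 RPKM in knockout, higher without overlap (log2 fold change 0.71, SE 0.24; limma, adjusted p = 0.568). Pfkfb3, which makes the fructose 2,6-bisphosphate that activates phosphofructokinase, was at 12.7, 12.4 and 12.4 RPKM among wild type libraries, compared with 6.25, 6.17 and 9.68 RPKM among knockout ones. It was lower without overlap (log2 fold change -0.75, SE 0.29; limma, adjusted p = 0.609). These were the only 2 of the 48 with an unadjusted p under 0.05, and 0 passed the adjusted threshold. One was higher and one lower, beside 4.73% and 3.06% of all genes. Without overlap, 2 of the 48 were higher and 2 lower, beside 7.63% and 6.87% of all genes. The medians of the subgroups were 0.40 for 4 glucose and lactate carriers, 0.03 for 5 other glycolytic isoenzymes and 0.18 for 5 genes of the fructose bisphosphate switch. They were 0.25 for 12 genes of pyruvate entry and exit, -0.02 for 7 remaining TCA enzymes, -0.02 for 7 pentose phosphate genes and 0.07 for 8 genes of citrate export and the malate shuttle.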

How the data were processed

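RNA of 6 libraries was amplified with the Ovation V2 system and sequenced on an Illumina HiSeq, per the labels' protocols. The submitters' processing notes name Subread, featureCounts, edgeR, limma and mm10, without versions. The authors deposited 1 table with RPKM per gene and library and their own log2 fold changes, p-values and adjusted p-values, per the file headers. From the deposited RPKM values, log2(RPKM + 0.5) was tested with limma 3.58.1 in R 4.3.3 (eBayes with a variance trend), for genes that reached 1 RPKM in 3 or more libraries. Genotype was the only term, and p-values were adjusted over the 13179 genes tested. Fold changes on this scale understate those of low genes. Isoenzyme shares were compared by exact permutation of the 6 libraries. Multiplying the RPKM values by GENCODE M21 exonic lengths and the library size gave whole reads in all libraries (tolerance 0.02) for 71.8% of genes. Reads of the others, among them Ldha, Pfkm and Idh3a, are estimates, and all served only limma-voom and the sums with pseudogene copies, found with blastn 2.17.0. The fit was checked on simulated data.

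The members and lists were chosen with earlier results of these data known. All members are named. Each library's value is printed for members whose genotypes did not overlap or with an unadjusted p under 0.05, and for the most abundant member of each step, and the others are given by their range. Further pathway genes are named where both criteria held. Alternatives were 2 other pseudocounts, no filter, a filter at 5 RPKM, no variance trend, quantile normalization, median centring, limma-voom, a replicate block and leaving out each library. Pseudogene sums were added after the values were seen.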

Additional observations from a re-analysis of the deposited data

How the results depend on the processing

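No member passed an adjusted p of 0.05 under any of the 16 alternatives run, and the directions of Ldha, Ldhb, Pfkm and Idh3a were the same in all 16. Ldhb had an unadjusted p of 0.0344 or less in each. Leaving out single libraries gave log2 fold changes of -1.29 to -0.91 for Ldhb, 0.36 to 0.53 for Ldha, -0.91 to -0.43 for Pfkm and 0.38 to 0.60 for Idh3a. Over all alternatives the adjusted p ranged from 0.333 to 0.896 for Ldhb, 0.533 to 0.902 for Ldha, 0.593 to 0.896 for Pfkm and from 0.527 to 0.902 for Idh3a. The number of members higher at an unadjusted p under 0.05 was 0 without the variance trend, 0 with median centring and 0 to 2 with single libraries left out (0 without wild type library 1 or knockout library 1, 1 without wild type library 3). The number lower was 1 without the trend and 1 to 3 with single libraries left out (1 without knockout library 3). Of the 13179 genes tested, 962 had an unadjusted p under 0.05 in either direction without the trend and 1016 with median centring. With single libraries left out 713 to 1197 of them did. Of the other pathway genes 0 to 2 had an unadjusted p under 0.05 with single libraries left out. The glycolysis median was -0.10 with quantile normalization, 0.00 with copies added and -0.12 to -0.02 with single libraries left out. The pyruvate median was 0.27 with the 5 RPKM filter, which tests fewer genes, and -0.09 to 0.10 with single libraries left out. For the TCA cycle the median was -0.20 without wild type library 1 and 0.02 without wild type library 3. Members higher without overlap were 4 with copies added and 2 to 8 with a library left out, and members lower 2 to 7, since fewer libraries overlap less. The share of all genes without overlap was not counted under these settings, so these counts have no background beside them. The difference in the Aldoc share ran from -1.50 to 3.68 percentage points, reversing without wild type library 3. That in the Slc2a3 share ran from -12.3 to 1.23, reversing without wild type library 1 or 2 or knockout library 3. The cause of these shifts was not tested. With a replicate block, 1 member was higher, 2 were lower and 1 other pathway gene had an unadjusted p under 0.05. Same-numbered libraries correlated at 0.015, 0.059 and 0.047, and differently numbered ones at -0.076 to 0.035. The main fit did not pair the libraries. Wild type libraries 2 and 3 correlated best with their own number, and library 1 with knockout library 2 (0.035). Low rows rest on few reads: the fewest of a member in a library were 80, for Pgk1. Its listed copies held 88.5% to 96.7% of the combined reads.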
